A study of Mus musculus with 9 samples.

Results

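Egfl7, Mmrn2, Clec14a, Ecscr, Ramp2, Rgcc, Vwf and Car4 are genes through which endothelial cells secrete or display proteins, and they were chosen by symbol as 8 of the 24421 genes in each count table. All 8 symbols were present. Rgcc departs from the name of the set, since its product is a cell cycle regulator inside the cell. The genes were followed in mouse choroidal neovascularization, in which a laser burn breaks the Bruch membrane and vessels grow out of the choroid. Male mice aged 8 weeks, of a strain and genotype not given in the sources used here, had 4 burns in each eye. Every group carried the burns and an injection of 5 µg into the vitreous, and no unlasered eye was analysed here. Libraries came in 3 groups of 3, named for the reagent: Fc as the control, ABTAA, which is an activating antibody against angiopoietin 2 that switches on Tie2 signalling, and VEGF Trap, a decoy that soaks up VEGF. Laser capture took an area 2-fold the lesion's diameter from the pigment epithelium and choroid, so that the lesion was read together with the choroid beside it. The column headings of the Fc tables read ctrl-KO, and these libraries were taken as Fc by their titles.

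The endothelium builds its surface and its surroundings from a small set of cell-restricted genes. Egfl7 and Mmrn2 products lie in the matrix around the vessel, Mmrn2 protein binds the lectin-like receptor Clec14a across that space, and Vwf protein is stored in Weibel-Palade bodies and tethers platelets. Ramp2 protein joins the receptor Calcrl to form the adrenomedullin receptor, which keeps vessels tight, and Car4 protein is a carbonic anhydrase anchored on the lumen of the choriocapillaris, the fenestrated capillary bed under the pigment epithelium.

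Total counts ran from 6335805 (ABTAA 3) to 14439835 (VEGF Trap 2) per library. Which animals gave which library is not stated in the labels, and p-values therefore reflect the spread among these libraries only, part of which may be technical. All 22 endothelial and all 12 pigment epithelium markers could be tested, as the labelled tissue implies. In CPM, a gene's counts as a share of its library on the usual CPM scale with TMM scaling, the summed level of the endothelial markers was 1389 to 1792 in Fc, 1997 to 2152 in ABTAA and 1586 to 1826 in VEGF Trap. Skeletal muscle markers, which would come from outside the choroid, summed to 112 to 173 CPM in Fc, 248 to 517 in ABTAA and 239 to 421 in VEGF Trap. Of these 14 genes, 8 were called higher in ABTAA and 3 in VEGF Trap, and none was at 0 in any library. Macrophage and microglia markers summed to 2132 to 2287 CPM in Fc, 1701 to 1967 in ABTAA and 2074 to 2277 in VEGF Trap, and of these 14 genes 2 fell in ABTAA by edgeR (C1qb and Fcgr3). There DESeq2 called 6 of the 14 and limma-voom 4. Melanocyte markers summed to 2130 to 2428 CPM in Fc, 2799 to 2872 in ABTAA and 2234 to 4034 in VEGF Trap, with 1 of 11 called higher in ABTAA (Pmel) and 2 in VEGF Trap (Pmel and Tyr). Most of this sum came from Dct, at 1801 to 3530 CPM, and which pigment cells gave it was not tested. Pigment epithelium markers summed to 2008 to 3312 CPM in Fc, 2399 to 3355 in ABTAA and 2752 to 3244 in VEGF Trap, with 0 of 12 called by edgeR. Schwann cell markers summed to 384 to 464 CPM in Fc, 483 to 534 in ABTAA and 449 to 501 in VEGF Trap, with 0 of 7 called by edgeR, although 2 and 1 had an unadjusted p under 0.05 and DESeq2 and limma-voom each called 1 in ABTAA. Pericyte and smooth muscle markers summed to 789 to 1072 CPM in Fc, 1048 to 1388 in ABTAA and 766.5 to 1078 in VEGF Trap. By edgeR 0 of the 12 passed. At an unadjusted p under 0.05 there were 5 in ABTAA and 2 in VEGF Trap, beside 16.9% and 15.4% of all genes. DESeq2 and limma-voom each called 1 of them in ABTAA. Of 2 tested lymphocyte and neutrophil markers, S100a9 was called lower in ABTAA, with Fc 1 at 197 CPM. The part of these cell types in the results below was not tested. In bulk tissue, fewer endothelial cells and less RNA per endothelial cell cannot be told apart.

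In ABTAA libraries Egfl7 rose and 6 of the 7 genes that could be tested did not pass by edgeR. DESeq2 called Ramp2 as well, where it called 750 of all 14054 tested genes. Against Fc, 1 of the 7 was called higher and 0 lower by edgeR's quasi-likelihood test at an adjusted p under 0.05, beside 1.4% of all 14054 tested genes called in either direction and 0.847% called higher. At an unadjusted p under 0.05 there were 4 (Egfl7, Ramp2, Vwf and Mmrn2), all higher, beside 16.9% of all genes in either direction and 8.64% on the higher side. These 4 had every ABTAA library above every Fc library, where 11.7% of all tested genes did. In VEGF Trap 0 of the 7 passed by edgeR, DESeq2 or limma-voom, beside 1.02% of all genes by edgeR. There, 1 gene (Vwf) had an unadjusted p under 0.05, beside 15.4% of all genes and 7.89% on the higher side, and 2 genes (Vwf and Ramp2) were without overlap on the higher side, beside 10.4%. The log2 fold change was above 0 for 5 of the 7 genes in each comparison, beside 49.6% of all genes in ABTAA and 50.1% in VEGF Trap. The 7 genes had a median log2 fold change of 0.42 in ABTAA and 0.21 in VEGF Trap, and all tested genes had medians of -0.003 and 0.001. The ABTAA and VEGF Trap comparisons share their Fc libraries.

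**Figure D1:**
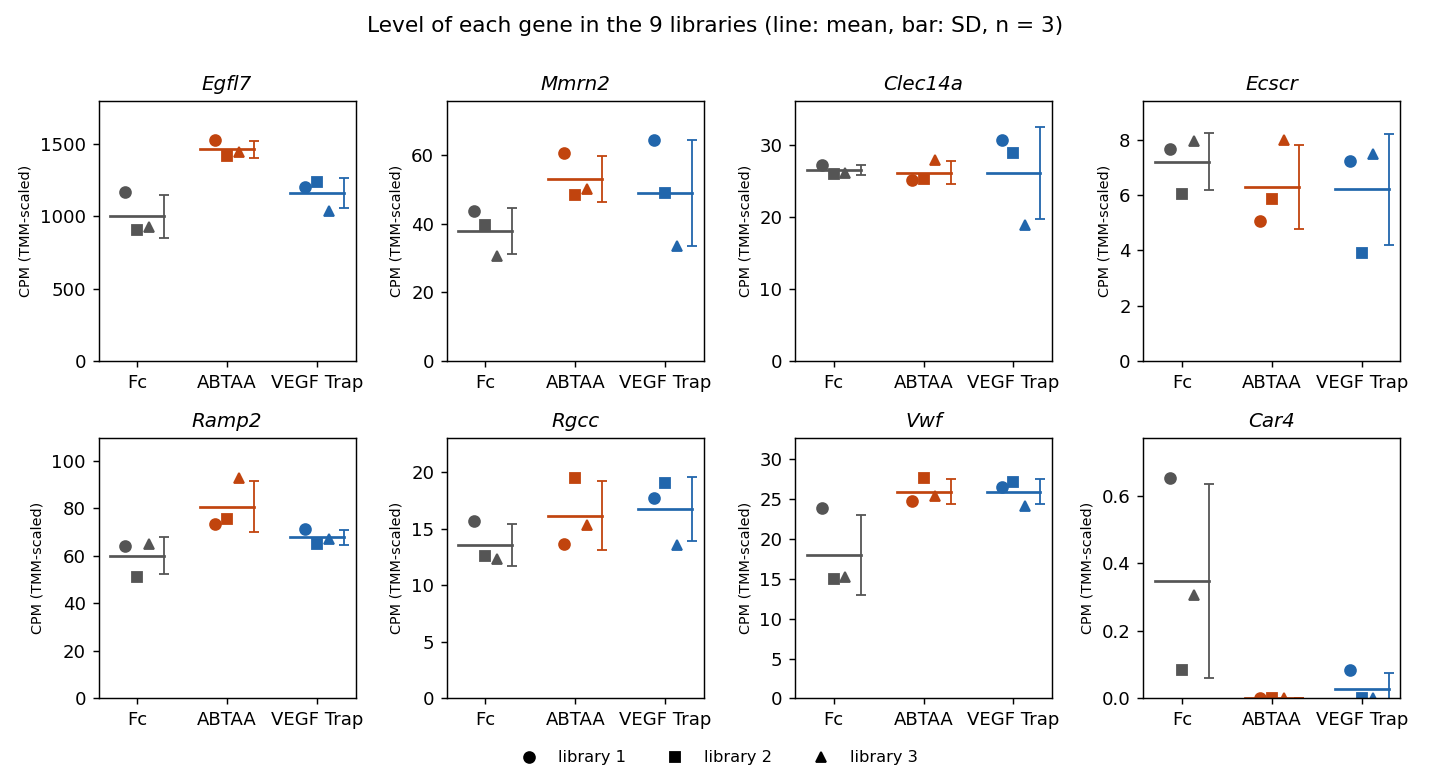
Levels of the 8 genes in the 9 libraries, in TMM-scaled CPM on the vertical axis, by treatment on the horizontal axis; each symbol is a library, the line is the group mean and the bar is the SD (n = 3). Egfl7 lies at 1420 to 1526 CPM in ABTAA, above all Fc and VEGF Trap libraries, and Car4 is at 0 in all ABTAA libraries.

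The secreted proteins come first. Egfl7, an endothelial factor of the vessel matrix that shapes vessel tubes and Notch signalling, lies on chromosome 2 from 26580014 to 26593120 of mm10 (GRCm38), on the plus strand, with 10 exons in its principal transcript. It stood at 1169, 903 and 929 CPM in Fc 1, 2 and 3. In ABTAA it stood at 1526, 1420 and 1442 CPM, and in VEGF Trap at 1200, 1235 and 1040 CPM. The ABTAA libraries were the highest of the 9 and lay close together, while Fc 1 was above the other Fc libraries and inside the VEGF Trap range. Its mean level rose 1.46-fold (95% interval 1.24 to 1.73), from 1000.5 ± 147 CPM in Fc to 1463 ± 56.1 CPM in ABTAA (SD, n = 3). On the log2 scale this was 0.55 with an SE of 0.11, and the adjusted p by edgeR was 0.0359.

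The Egfl7 call rested on having all 6 Fc and ABTAA libraries but Fc 1. The adjusted p by edgeR was 0.164 without Fc 2, 0.102 without Fc 3, 0.0851 without ABTAA 1, 0.129 without ABTAA 2 and 0.0554 without ABTAA 3. The log2 fold change was 0.48, 0.49, 0.51, 0.57 and 0.56 in the same order, and without Fc 1 it was 0.67 (adjusted p = 0.0298). With a correction for GC content it was 0.43 (adjusted p = 0.0851). The transcripts of Egfl7 (57.1% GC), Ramp2 (56.7%) and Vwf (56.5%) are richer in GC than the median tested gene (49.8%), while that of Clec14a is poorer (44.6%). In VEGF Trap the mean of Egfl7 was 1159 ± 104 CPM, a log2 difference from Fc of 0.21 ± 0.11 (95% interval -0.03 to 0.45, adjusted p = 0.394, edgeR), and 0.34 without Fc 1.

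**Figure D2:**
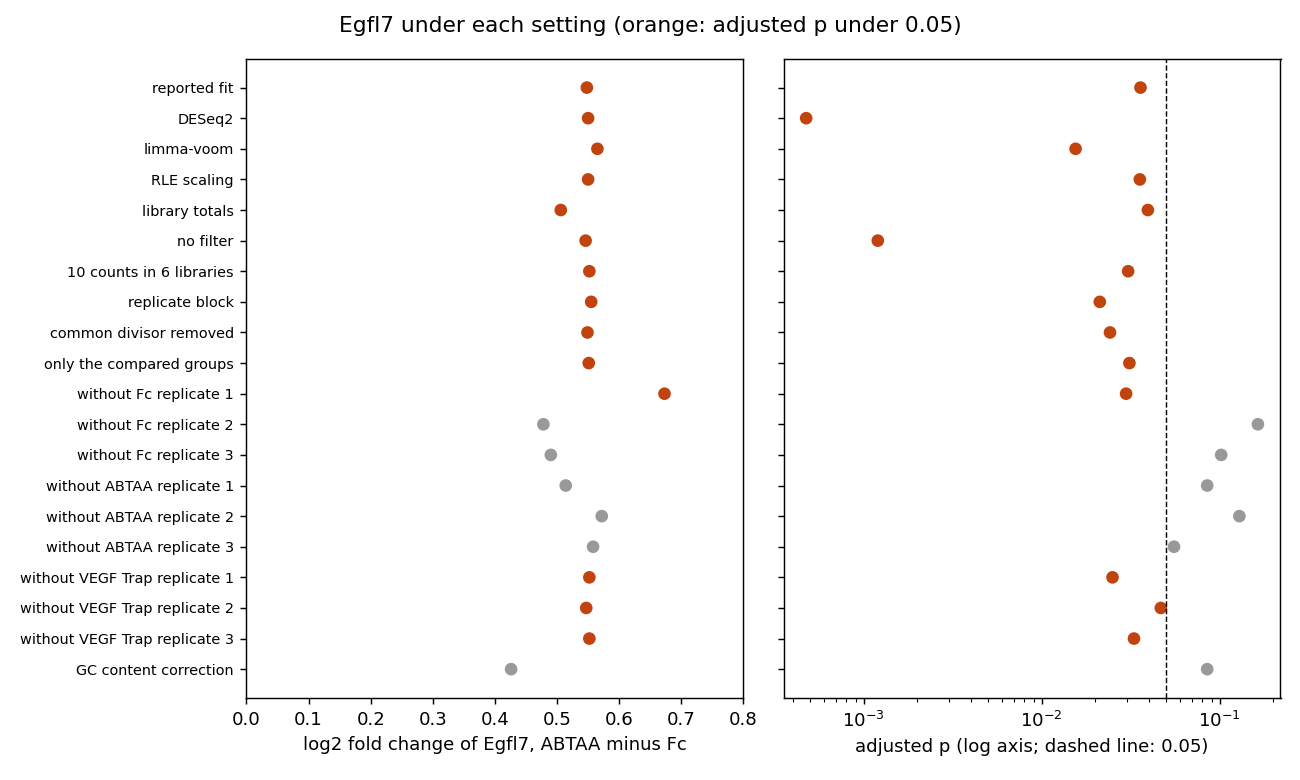
Egfl7 in ABTAA minus Fc under each setting (rows): log2 fold change on the left and adjusted p on a log axis on the right, with a dashed line at 0.05 and orange points below it. The log2 fold change stays between 0.426 and 0.673, and the adjusted p crosses the line without Fc 2, Fc 3 or any ABTAA library and with the GC correction.

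The Egfl7 locus also holds the hairpin of the endothelial microRNA miR-126, whose 3p arm is shown because Egfl7 is the one gene of the set that was called and carries this microRNA with it. The sequence is RefSeq's (GRCm38.p6, chr2:26591402-26591423, plus strand), with the seed, bases 2 to 8, in capitals.
mmu-miR-126a-3p: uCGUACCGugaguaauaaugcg
The hairpin gene Mir126a was listed at a count of 0 in all 9 libraries, and so was Mir126b on the opposite strand. These are counts of the hairpin gene's own row, and they do not measure the mature microRNA.

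Start-site windows of 4 of the 8 genes were read from the RefSeq table (GRCm38.p6, from 250 bases before to 50 bases after a start), 6 windows in all. Egfl7 had 3 windows, and Clec14a, Rgcc and Car4 had 1 each, while Mmrn2, Ramp2 and Vwf were not matched. Ecscr was set aside before the search, so whether it had a window is not given. The letters GGAAGT, 1 form of the motif of the ETS factors, a family active in endothelium, were searched on both strands. Shorter and other forms of this motif were not searched. GGAAGT occurred 2, 1 and 0 times in the Egfl7 windows, 1 time in Rgcc and 0 times in Clec14a and Car4. Of all 32851 windows, 23.8% held a match. The windows below set the called gene Egfl7 (chr2:26583615-26583914, plus strand) beside Clec14a (chr12:58269209-58269508, minus strand), a partner gene whose group means differed little. Capitals mark GGAAGT.
Egfl7 window: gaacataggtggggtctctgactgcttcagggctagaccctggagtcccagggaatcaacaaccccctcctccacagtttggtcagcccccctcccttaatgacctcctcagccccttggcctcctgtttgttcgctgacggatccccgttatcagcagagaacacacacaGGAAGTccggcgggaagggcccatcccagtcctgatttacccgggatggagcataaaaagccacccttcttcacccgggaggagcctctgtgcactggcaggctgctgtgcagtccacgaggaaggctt
Clec14a window: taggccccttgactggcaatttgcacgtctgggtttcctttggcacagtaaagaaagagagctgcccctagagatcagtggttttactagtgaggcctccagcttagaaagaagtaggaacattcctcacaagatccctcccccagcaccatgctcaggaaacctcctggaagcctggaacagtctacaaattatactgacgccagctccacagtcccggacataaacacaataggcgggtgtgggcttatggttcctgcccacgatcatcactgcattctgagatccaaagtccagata
The GC box GGGCGG occurred 4 times in the Egfl7 window furthest downstream and 5 times in Rgcc, and 35.7% of all windows held it. The TATA box letters TATAAA occurred in the Car4 window alone of the 6, and 13.6% of all windows held them. None of these motifs contains another, a match is a run of letters only, and gene counts do not say which start was used.

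Mmrn2, a multimerin of the endothelial matrix, lies on chromosome 14 from 34375465 to 34404287 (plus strand, 7 exons). It stood at 43.7, 39.5 and 30.6 CPM in Fc, 60.6, 48.4 and 50.1 CPM in ABTAA, and 64.3, 49.0 and 33.6 CPM in VEGF Trap. All ABTAA libraries were above all Fc libraries, and the VEGF Trap libraries spanned from inside the Fc range to above every other library. The log2 difference was 0.49 ± 0.20 in ABTAA against Fc (95% interval 0.06 to 0.91, adjusted p = 0.233, edgeR) and 0.38 ± 0.20 in VEGF Trap (95% interval -0.05 to 0.80, adjusted p = 0.391). Neither passed. The VEGF Trap value was 0.14 without VEGF Trap 1 and 0.58 without VEGF Trap 3, so single libraries moved it by more than the difference between the 2 treatments.

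Vwf, the von Willebrand factor of platelet tethering, lies on chromosome 6 from 125546774 to 125686679 (plus strand, 52 exons). Its level was 23.8, 14.9 and 15.3 CPM in Fc, 24.7, 27.7 and 25.3 CPM in ABTAA, and 26.4, 27.2 and 24.1 CPM in VEGF Trap. Both treated groups lay above Fc without overlap, although Fc 1 fell short of the lowest treated library by little. With library totals alone in place of TMM, VEGF Trap and Fc overlapped. The log2 difference from Fc was 0.53 ± 0.18 in ABTAA (95% interval 0.15 to 0.91, adjusted p = 0.141, edgeR) and 0.53 ± 0.18 in VEGF Trap (95% interval 0.15 to 0.91, adjusted p = 0.148). Neither passed. Without Fc 1 the values were 0.78 (adjusted p = 0.0621) and 0.78 (adjusted p = 0.0691), and without Fc 2 they were 0.41 in both comparisons. Fc 1 was also the library with the highest sum of neutrophil and lymphocyte markers in the series, 506 CPM, where the other 8 had 42.4 to 127.

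Platelets and megakaryocytes also make Vwf. Of 12 of their markers 8 could be tested and 0 passed in either comparison with Fc by edgeR, with 1 at an unadjusted p under 0.05 in each, beside 16.9% and 15.4% of all genes. That gene was Gp1bb, a platelet glycoprotein gene, whose mean was 48.9 CPM in Fc, 63.05 in ABTAA and 72.9 in VEGF Trap. In VEGF Trap it lay above Fc without overlap, by 0.58 ± 0.14 on the log2 scale (adjusted p = 0.0607, edgeR), and DESeq2 and limma-voom called it there. Its part in the Vwf values was not tested. Their sum was 113 to 136 CPM in Fc, 114 to 147 in ABTAA and 135 to 165 in VEGF Trap. The platelet glycoprotein gene Gp9 was at 0 in all 9 libraries, and Ppbp was at 0.298 to 1.41 CPM. Most of the sum came from Pf4 and Gp1bb, which stood at 37.1 to 68.7 and 45.2 to 76.4 CPM.

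The surface receptors behaved less alike. Ramp2, the partner of Calcrl in the adrenomedullin receptor, lies on chromosome 11 from 101246028 to 101259546 (plus strand, 4 exons in the principal transcript). It stood at 64.1, 51.3 and 65.1 CPM in Fc, 73.4, 75.6 and 92.9 CPM in ABTAA, and 71.4, 65.1 and 67.1 CPM in VEGF Trap. The ABTAA libraries were above all others. VEGF Trap 2 and Fc 3 had nearly the same level, so the lack of overlap of VEGF Trap with Fc rests on a difference in the second decimal and ended with library totals. The log2 difference was 0.42 ± 0.14 in ABTAA against Fc (95% interval 0.13 to 0.71, adjusted p = 0.123, edgeR), and DESeq2 called it (adjusted p = 0.0415), beside 750 of all 14054 genes. Over its alternatives the adjusted p ran from 0.0415 to 0.396. In VEGF Trap it was 0.17 ± 0.13 (95% interval -0.11 to 0.46, adjusted p = 0.585), and 0.07 without Fc 2.

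Some Ramp2 transcripts run on into Vps25, the next gene on the same strand, and share its 3 prime end. How reads in that shared stretch were counted is not given in the sources used here. Vps25, a subunit of the endosomal ESCRT-II complex, stood at 58.9 ± 6.06 CPM in Fc and 75.5 ± 3.06 CPM in ABTAA, a log2 difference of 0.36 ± 0.14 (adjusted p = 0.201, edgeR). The part of shared reads in the Ramp2 values was not tested. Some Egfl7 transcripts likewise share a 3 prime end with Gm20532, a gene on the same strand. Gm20532 overlaps the last exon of the principal Egfl7 transcript by 0 bases. Egfl7 also overlaps Agpat2 on the opposite strand by 64 bases, outside that last exon. Agpat2 stood at 8.04 ± 1.26 CPM in Fc and 10.5 ± 3.17 CPM in ABTAA.

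Clec14a, the C-type lectin receptor for Mmrn2 protein, lies on chromosome 12 from 58264720 to 58269290 (minus strand, 1 exon). Its level was 27.3, 26.1 and 26.2 CPM in Fc, 25.2, 25.3 and 28.0 CPM in ABTAA, and 30.7, 28.8 and 18.9 CPM in VEGF Trap. The Fc libraries were close together and inside the ABTAA range, and VEGF Trap 3 was the lowest of all 9. The log2 difference from Fc was -0.02 ± 0.17 in ABTAA (95% interval -0.38 to 0.34, adjusted p = 0.972, edgeR) and -0.01 ± 0.17 in VEGF Trap (95% interval -0.36 to 0.35, adjusted p = 0.989). In ABTAA the interval spans 0.769-fold to 1.26-fold. The sign turned under some settings in both comparisons, and in VEGF Trap it was 0.17 without VEGF Trap 3.

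Ecscr, a surface receptor of endothelial movement and survival, lies on chromosome 18 from 35713086 to 35722356 (minus strand, 9 exons). It was read from 49 to 104 counts per library, a counting error of 9.81% to 14.3%. Its level was 7.66, 6.03 and 7.94 CPM in Fc, 5.06, 5.85 and 7.98 CPM in ABTAA, and 7.21, 3.90 and 7.49 CPM in VEGF Trap. All 3 groups overlapped, and VEGF Trap 2 was the lowest library. The log2 difference from Fc was -0.21 ± 0.29 in ABTAA (95% interval -0.83 to 0.41, adjusted p = 0.782, edgeR) and -0.23 ± 0.29 in VEGF Trap (95% interval -0.85 to 0.38, adjusted p = 0.757). The ABTAA value was -0.075 without ABTAA 1, -0.14 without Fc 3, -0.32 without Fc 2 and -0.40 without ABTAA 3. The VEGF Trap value was 0.03 without VEGF Trap 2, -0.35 without Fc 2, -0.37 without VEGF Trap 1 and -0.38 without VEGF Trap 3. A gene on the opposite strand, 1700066B19Rik, overlaps it by 62 bases and held 0 to 9 counts.

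Car4, the carbonic anhydrase of the choriocapillaris lumen, lies on chromosome 11 from 84957786 to 84966044 (plus strand, 8 exons). It held 7, 1 and 4 counts in Fc 1, 2 and 3, 0 counts in each ABTAA library, and 1, 0 and 0 counts in VEGF Trap. It failed the filter on low counts, so it was not among the 7 genes tested. The 12 Fc counts amount to 0.337 CPM over the group (exact 95% Poisson interval 0.174 to 0.589), for counting error only. The 0 counts of ABTAA allow up to 0.115 CPM (3 counts over the group), and against that floor the Fc value was at least 2.94-fold higher, before the counting error of Fc. With the counting error of both groups, the exact 95% interval of the ratio of ABTAA to Fc ran from 0 to 0.49. Fc 1 held 7 of the 12 counts, and without it the fold was 1.75 and the interval reached 1.04. The VEGF Trap level was 0.0882 times that of Fc, with a 95% interval for counting error of 0.00206 to 0.596. An exact two-sided permutation test over libraries gave p = 0.1 in ABTAA and p = 0.1 in VEGF Trap, the smallest that 3 against 3 can give. In VEGF Trap this rests on Fc 2 and VEGF Trap 1, which each held 1 count and are told apart by library scaling alone (0.0849 and 0.0829 CPM), so it shows no separation of these groups. Without the filter, edgeR gave adjusted p = 0.297 and adjusted p = 0.51. Car4 was thus near the limit of detection in all groups, which does not measure how much choriocapillaris the tissue held.

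Rgcc, which regulates the cell cycle and responds to complement, lies on chromosome 14 from 79288756 to 79301645 (minus strand, 5 exons). It stood at 15.7, 12.6 and 12.4 CPM in Fc, 13.6, 19.5 and 15.3 CPM in ABTAA, and 17.7, 19.0 and 13.6 CPM in VEGF Trap. Each treated group had libraries inside and above the Fc range. The log2 difference from Fc was 0.26 ± 0.20 in ABTAA (95% interval -0.16 to 0.67, adjusted p = 0.555, edgeR) and 0.32 ± 0.19 in VEGF Trap (95% interval -0.09 to 0.73, adjusted p = 0.468). Without ABTAA 2 the ABTAA value was 0.095. The highest, 0.37, came without Fc 1 or ABTAA 1. The VEGF Trap value ran from 0.22 without VEGF Trap 2 to 0.44 without VEGF Trap 3.

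Between the treatments themselves, 0 of the 7 genes passed by edgeR, DESeq2 or limma-voom when ABTAA was set against VEGF Trap. Over all genes 0 of 14054 (0%) passed by edgeR, and 711 (5.06%) had an unadjusted p under 0.05. Egfl7 was higher in ABTAA by 0.34 ± 0.11 on the log2 scale (95% interval 0.09 to 0.58, adjusted p = 0.932), in 3 of 3 ABTAA libraries above every VEGF Trap library. It was the 1 gene of the set with an unadjusted p under 0.05, beside 2.64% of all genes on that side. Ramp2 was the other gene without overlap, at 0.25 ± 0.14 (95% interval -0.04 to 0.53), beside 5.14% of all tested genes without overlap on that side. On the lower side 0 of the 7 were without overlap, beside 4.74%. Vwf stood at -0.003 ± 0.18 (95% interval -0.38 to 0.37), Clec14a at -0.01 ± 0.17, Rgcc at -0.06 ± 0.19, Mmrn2 at 0.11 ± 0.20 and Ecscr at 0.03 ± 0.30. An interval of this width does not show that the treatments act alike on Vwf.

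**Figure D3:**
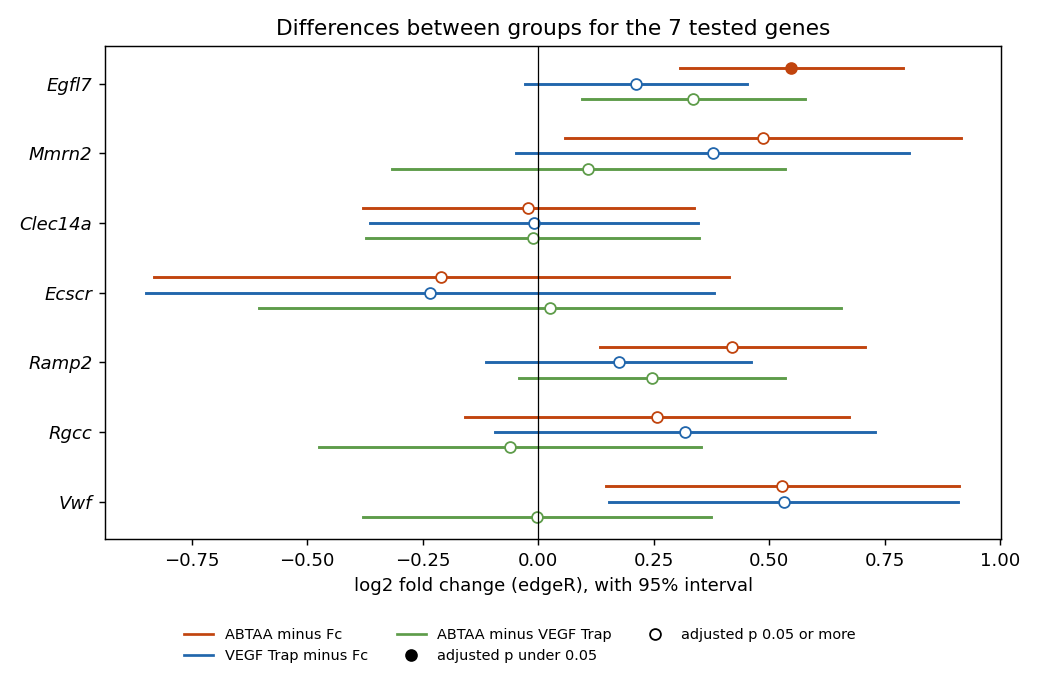
Log2 fold change of the 7 tested genes on the horizontal axis, with 95% intervals as bars, for ABTAA minus Fc (orange), VEGF Trap minus Fc (blue) and ABTAA minus VEGF Trap (green); a filled point has an adjusted p under 0.05 by edgeR. Only Egfl7 in ABTAA minus Fc is filled, and Vwf has nearly the same value, 0.53, against Fc in both treatments.

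Each gene was also set against the mean log2 CPM of the 22 endothelial markers, of which 4 passed in ABTAA and none of which is in the set. This ratio was added after the data were seen. The marker mean was 5.32 ± 0.25 in Fc, 5.71 ± 0.12 in ABTAA and 5.398 ± 0.11 in VEGF Trap (log2 CPM, SD, n = 3). Its difference between ABTAA and Fc was 0.39, and Fc 1 lay above ABTAA 3 (exact permutation p = 0.2, two-sided). Each marker weighed alike in this mean, also Sox18, at 7.47, 1.19 and 3.05 CPM in Fc and 15.6, 28.1 and 3.44 CPM in ABTAA. The part of Sox18 in the marker mean and in the overlaps below was not tested. With the Fc mean set to 0, Egfl7 stood at -0.05, 0.03 and 0.03 in Fc, 0.22, 0.01 and 0.28 in ABTAA, and 0.07, 0.24 and 0.10 in VEGF Trap. Relative to the markers, the Egfl7 difference between ABTAA and Fc was 0.17 on the log2 scale, and the groups overlapped (exact permutation p = 0.3, two-sided, smallest possible 0.1). In VEGF Trap it was 0.14 without overlap (exact permutation p = 0.1).

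Vwf and Clec14a had other profiles on this scale. Vwf stood at 0.15, -0.07 and -0.08 in Fc, 0.08, 0.14 and 0.26 in ABTAA, and 0.38, 0.55 and 0.48 in VEGF Trap. All VEGF Trap libraries were above all others, by a mean of 0.47 over Fc (exact permutation p = 0.1, the smallest possible) and with ABTAA lower than VEGF Trap by 0.31 (exact permutation p = 0.1). Clec14a stood at -0.24, 0.14 and 0.11 in Fc and -0.473, -0.575 and -0.183 in ABTAA, a difference of -0.41 with overlap (exact permutation p = 0.2). The other 4 tested genes overlapped between ABTAA and Fc, with differences of -0.595 (Ecscr), -0.15 (Rgcc), 0.03 (Ramp2) and 0.10 (Mmrn2). Rgcc was lower in ABTAA than in VEGF Trap by -0.36 without overlap (exact permutation p = 0.1). Of the 21 ratios compared in this way, none can reach an adjusted p under 0.05 in groups of 3. No share of all tested genes without overlap on this scale is given. The separations of Egfl7, Vwf and Rgcc on it therefore have no background beside them.

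**Figure D4:**
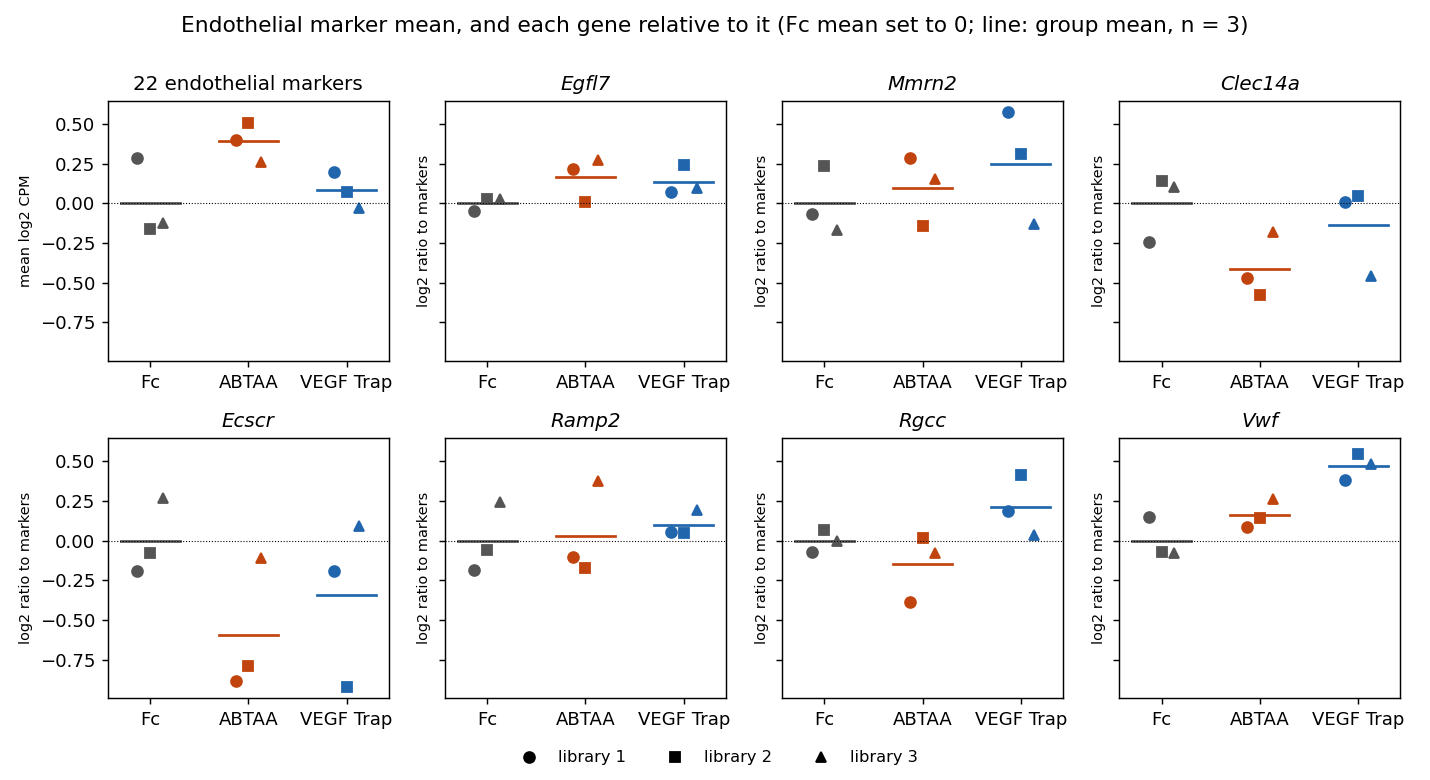
The first panel shows the mean log2 CPM of 22 endothelial markers in each library, and the others the log2 ratio of each gene to that mean, all with the Fc mean at 0; lines are group means (n = 3). Egfl7 in ABTAA lies at 0.007 to 0.276, overlapping Fc, and Vwf in VEGF Trap lies at 0.383 to 0.548, above all Fc and ABTAA libraries.

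Partner genes were read from lists drawn up around each gene. Over all tested genes, edgeR called 0.847% higher in ABTAA and 0.512% higher in VEGF Trap. Of 10 tested partners of Clec14a and Mmrn2, 1 rose in ABTAA and 9 did not pass (median log2 fold change 0.12), while 0 passed in VEGF Trap by edgeR and 1 by DESeq2 and limma-voom (median -0.14). The gene that rose was Hspg2, which encodes perlecan, a heparan sulfate proteoglycan of basement membranes. Hspg2 rose from 209 ± 56 to 368 ± 51.3 CPM (0.82 ± 0.16, adjusted p = 0.0303, edgeR), with 273, 184 and 170 CPM in Fc and 397, 397 and 308 CPM in ABTAA. The groups did not overlap. The call ended without Fc 2 (adjusted p = 0.139), Fc 3 (0.0915), ABTAA 1 (0.0716) or ABTAA 2 (0.129) and with the GC correction (0.0851). In VEGF Trap Hspg2 stood at 0.60 ± 0.16 (adjusted p = 0.0689). Cd93, the receptor related to Clec14a that also binds Mmrn2 protein, stood at -0.07 ± 0.12 in ABTAA (adjusted p = 0.841) and -0.18 ± 0.12 in VEGF Trap (adjusted p = 0.533). Mmrn1, the multimerin of platelets, was at 0 to 2.19 CPM and was not tested.

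In the adrenomedullin system 1 of 7 tested genes rose in ABTAA and 6 did not pass (median 0.02), where DESeq2 called 3 (Ramp3, Adm and Cpe). In VEGF Trap 0 passed by edgeR and limma-voom and 1 by DESeq2 (median 0.10). Ramp3, the relative of Ramp2 that also pairs with Calcrl, rose by 0.79 ± 0.15 on the log2 scale (adjusted p = 0.0259, edgeR), with group means of 31.3 ± 4.78 CPM in Fc and 54.1 ± 5.75 CPM in ABTAA. It stood at 36.6, 27.3 and 30.01 CPM in Fc, 55.6, 58.9 and 47.7 CPM in ABTAA, and 40.5, 47.8 and 39.8 CPM in VEGF Trap. Both treated groups were above Fc without overlap. In VEGF Trap the difference was 0.45 ± 0.15 (adjusted p = 0.139). The ABTAA call ended without Fc 2 (adjusted p = 0.13), Fc 3 (0.0864), ABTAA 1 (0.067) or ABTAA 2 (0.129).

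The ligand and the shared receptor of that system did not pass by edgeR or limma-voom, and DESeq2 called the ligand lower in ABTAA (adjusted p = 0.0101). Adm, which encodes adrenomedullin, stood at 37.8, 34.0 and 21.5 CPM in Fc, 16.0, 13.8 and 17.1 CPM in ABTAA, and 30.3, 19.7 and 12.6 CPM in VEGF Trap. All ABTAA libraries were below all Fc libraries, with a log2 difference of -0.995 ± 0.27 (95% interval -1.56 to -0.43, adjusted p = 0.07, edgeR). In VEGF Trap it was -0.56 ± 0.26 (adjusted p = 0.313). Calcrl stood at -0.09 ± 0.19 in ABTAA (adjusted p = 0.869) and -0.34 ± 0.19 in VEGF Trap (adjusted p = 0.431). Ramp1, the partner of Calcrl in the CGRP receptor, was at 3.88 CPM in Fc and stood at -0.19 ± 0.38 in ABTAA.

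Among carbonic anhydrases and bicarbonate carriers, 1 of 19 tested genes rose in ABTAA (median 0.08) and 1 in VEGF Trap (median 0.32). At an unadjusted p under 0.05 there were 2 and 6, beside 16.9% and 15.4% of all genes, and DESeq2 called 1 and 2 (Slc4a4 added in VEGF Trap). The gene that rose was Slc4a3, an anion exchanger, which rose from 15.7 ± 2.74 CPM in Fc to 32.2 ± 7.95 in ABTAA (log2 1.03 ± 0.22, adjusted p = 0.0397, edgeR) and 30.9 ± 9.00 in VEGF Trap (0.99 ± 0.22, adjusted p = 0.046). Each of these calls ended in 7 of the 9 fits that left out a library, with adjusted p of at most 0.139 in ABTAA and 0.163 in VEGF Trap, and with the GC correction. Car14, an anhydrase of the pigment epithelium, stood at 0.34 ± 0.22 in ABTAA and 0.38 ± 0.22 in VEGF Trap, and Car2 at -0.36 ± 0.37 and 0.07 ± 0.36. None of these passed.

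No gene passed in either comparison with Fc among 10 tested Egfl7 partners (medians 0.18 in ABTAA and 0.12 in VEGF Trap), 9 in the Rgcc list (-0.07 and -0.06) or 15 of Vwf storage and coagulation (0.07 and -0.06) by edgeR. At an unadjusted p under 0.05 these lists held 2, 2 and 3 genes in ABTAA and 1, 0 and 2 in VEGF Trap, where 16.9% and 15.4% of all genes did. DESeq2 and limma-voom called none of them but 1 gene each of the Vwf list in VEGF Trap. Notch4, an endothelial Notch receptor, stood at 7.94, 7.81 and 7.33 CPM in Fc and 11.4, 11.8 and 12.4 CPM in ABTAA, without overlap (0.62 ± 0.22, adjusted p = 0.16, edgeR), and at -0.17 ± 0.22 in VEGF Trap. It was singled out after its values were seen. Egfl8, the closest relative of Egfl7, stood at 0.02 ± 0.12 in ABTAA and 0.03 ± 0.12 in VEGF Trap. F8, which encodes the clotting factor that Vwf protein carries, stood at 0.84 ± 0.51 in ABTAA, Selp, a Weibel-Palade body protein gene, at 0.04 ± 0.59, and Angpt2, another stored product, at 0.30 ± 0.23. Of 19 tested genes of endothelial adhesion and identity, 4 rose in ABTAA (Cldn5, Eng, Pecam1 and Plvap) and 0 passed in VEGF Trap by edgeR (medians 0.25 and 0.05). These 4 are the same genes that passed among the 22 endothelial markers, so the 2 lists do not give separate results. Of all genes, 0.847% were called higher in ABTAA. At an unadjusted p under 0.05 there were 7 in ABTAA and 5 in VEGF Trap, beside 16.9% and 15.4% of all genes. DESeq2 called 7 and 4 of the 19, and limma-voom 6 and 2. All 4 ABTAA calls ended without Fc 2 and without ABTAA 2, those of Cldn5, Plvap and Pecam1 without Fc 3, and that of Pecam1 also without Fc 1, ABTAA 1, ABTAA 3 or VEGF Trap 2, with library totals and with the GC correction (adjusted p at most 0.191). Cdh5 and Kdr were among the 15 that did not pass in ABTAA.

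**Figure D5:**
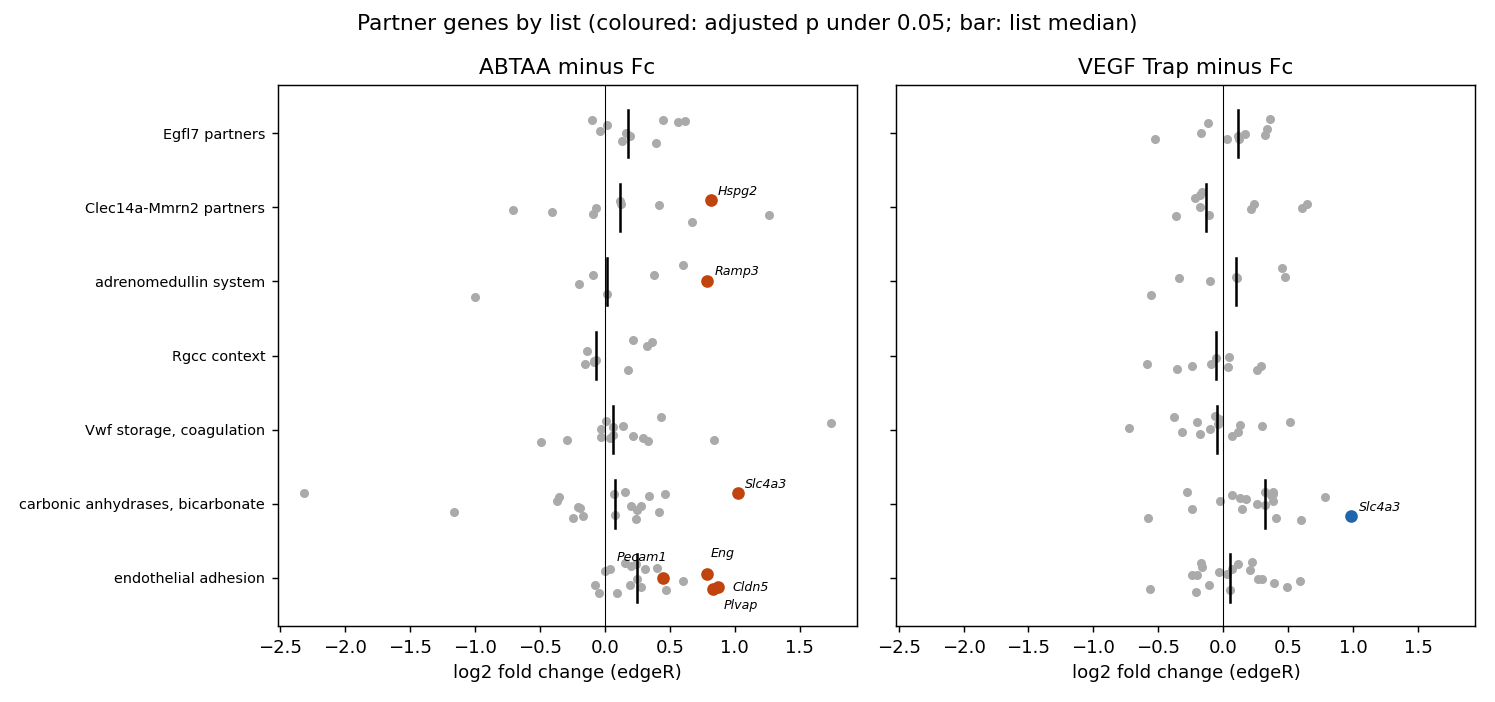
Log2 fold change of partner genes by list for ABTAA minus Fc and VEGF Trap minus Fc; each point is a gene, coloured and named where the adjusted p is under 0.05 by edgeR, and the bar is the median of the points shown, with a gene left out where a group had 0 counts. Hspg2 (0.82) and Ramp3 (0.79) are coloured in ABTAA alone, and Slc4a3 in both comparisons.

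The genes of the set also differed in how alike their profiles were over the 9 libraries. Profiles were compared by the root mean square difference of log2 CPM, each gene centred on its own mean, as a description. Within the set Egfl7 and Ramp2 were the most alike pair (0.162), followed by Egfl7 and Vwf (0.191), and Mmrn2 and Ecscr were the least alike (0.544). Among 8479 other genes of at least 10 CPM, those nearest to Egfl7 were Sbf1 (0.092), Nhsl2 (0.093) and Acvrl1 (0.096), where the median gene was at 0.321. Acvrl1 encodes ALK1, an endothelial receptor of the TGF-beta family. The nearest to Ramp2 were Snrnp200, Rbx1 and Arhgap9 (0.069 to 0.082), and to Vwf Adck4, Cited2 and Akr7a5 (0.074 to 0.105). Those nearest to Mmrn2 were Rsad1, Cbfa2t3 and Syt4 (0.114 to 0.149), to Rgcc Pink1, Znrf1 and Snrk (0.091 to 0.111), to Clec14a Peli1, Traf2 and Irf2 (0.075 to 0.079), and to Ecscr Glmn, Phf6 and Ddc (0.167 to 0.178).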

How the data were processed

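Each deposited table gives whole-number counts per gene symbol for 1 library, not normalized by the authors. Bowtie2, edgeR and the build mm10 are named in the submitters' processing notes, and 500 ng of RNA entered a LEXOGEN Quant-Seq kit per the labels' protocols. Versions, annotation, counter and strand setting are not given in the sources used. CPM were not divided by gene length, so levels were not compared between genes.

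All 9 libraries entered 1 model by group (edgeR 4.0.16 in R 4.3.3, filterByExpr, TMM, quasi-likelihood F-test, 6 residual degrees of freedom), with Benjamini-Hochberg adjustment over 14054 genes and a threshold of 0.05. The script was tested on simulated data. Standard errors were taken as the absolute log2 difference over the root of the F statistic. Log2 CPM used a prior count of 2. Replicate numbers in the titles were not used in the reported fit, and the labels do not say what they stand for. Deviations from the group mean correlated at 0.013 to 0.112 for equal numbers (2 of 9 pairs over 0.1). For unequal numbers they correlated at -0.092 to 0.037 (0 of 18 pairs over 0.1). Erythrocyte marker sums were lowest in library 3 of each group (324 CPM in Fc, 292 in ABTAA and 299 in VEGF Trap). Alternatives were DESeq2 1.42.0, limma-voom (limma 3.58.1), RLE scaling, library totals, 2 other filters (none, and 10 counts in 6 libraries), only the compared groups, the replicate block, counts divided by their common divisor, each library left out, and, added after the data were seen, a GC correction (loess, span 0.4).

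Named genes were the 8 members, every partner gene called in a comparison with Fc, a fixed set of partners, and the 3 genes nearest to each member. The members and lists were chosen with earlier results of these data known. Coordinates came from GENCODE M21 on GRCm38. Near-identical 3 prime ends were sought for all transcripts of each gene with BLAST+ 2.17.0. They were found for some transcripts of Egfl7 (Gm20532) and Ramp2 (Vps25).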

Additional observations from a re-analysis of the deposited data

How the results depend on the processing

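Egfl7 was the 1 gene called in ABTAA against Fc, and DESeq2 called 2 genes (Ramp2 added). With the GC correction 0 were called, and with 1 library left out 0 to 1, the 0 arising without Fc 2, Fc 3 or any ABTAA library. In the other comparisons 0 were called under every alternative run. Deviations correlated at 0.013 to 0.112 for equal replicate numbers and at -0.092 to 0.037 for unequal ones. The reported fit did not use these numbers. With the replicate block 1 gene was called in ABTAA against Fc (Egfl7, 0.56 on the log2 scale) and 334 over all genes, beside 197 without it. Over all genes the ABTAA count was 750 by DESeq2, 684 without a filter, 411 by limma-voom, 301 in a fit of the compared groups alone, 85 with the GC correction and 0 to 373 with 1 library left out (0 without ABTAA 2, 13 without Fc 2). The VEGF Trap count of 144 became 671 by DESeq2, 242 by limma-voom, 616 without a filter, 221 with library totals, 300 with the block, 249 with common divisors removed and 7 (without Fc 2) to 144 with 1 library left out.

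Of 399 values of the 7 genes over the alternatives, 365 kept direction and side of the threshold, 6 lost the call, 1 gained it and 27 changed sign, and none of those 27 exceeded 0.236 in size. Clec14a became 0.076 (ABTAA against Fc) and 0.072 (VEGF Trap against Fc) with the GC correction. Between the treatments Clec14a became 0.007 with limma-voom, 0.025 with library totals, 0.002 with the replicate block and 0.004 with the GC correction, and Vwf became 0.032 with library totals and 0.001 with the replicate block. Outside the 7 genes and their 399 values, Pecam1 in VEGF Trap against Fc became -0.009 with library totals. With 1 library left out, Clec14a ran from -0.07 to 0.005 in ABTAA against Fc and from -0.127 to 0.169 in VEGF Trap against Fc, and Ecscr from -0.381 to 0.026 in the latter. Between the treatments Mmrn2 ran from -0.092 to 0.346, Clec14a from -0.187 to 0.109 and Ecscr from -0.236 to 0.175. Rgcc ran from -0.228 to 0.051 there and Vwf from -0.057 to 0.032. Slc4a3, also outside the 7 genes, ran from -0.165 to 0.286 between the treatments. The cause was not tested. Depth limits Car4, with 0 to 7 counts per library, and Ecscr.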
